A study of Mus musculus with 9 samples.

Results

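Heat shock proteins and their co-chaperones were followed in mouse CD4+ T cells before and after conversion into induced regulatory T cells (iTreg cells). The group was taken from the rows of the expression table by gene symbol: the HSP70 and HSP110 (Hspa, Hsph), HSP90 (Hsp90), HSP60 and HSP10 (Hspd1, Hspe1) and small heat shock protein (Hspb) families, the J-domain proteins (Dnaja, Dnajb, Dnajc), CCT chaperonin subunits 2 to 8, the BAG proteins 1 to 6 and the heat shock factors Hsf1 and Hsf2. The names gave 80 rows, of which the endoplasmic reticulum chaperones Hspa5 and Hsp90b1 were left out, so that 78 members remained among 14912 rows. Most members work in the cytosol, but the names also bring in mitochondrial chaperones (Hspa9, Hspd1, Hspe1, Dnajc15) and J-domain proteins of the endoplasmic reticulum (Dnajb9, Dnajb11, Dnajc3). The letters Hspb also take in Hspb11, Hspbap1 and Hspbp1, which are not small heat shock proteins but are plotted in that class.

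HSP70 proteins bind unfolded stretches of polypeptide in a cycle driven by ATP. J-domain proteins deliver the client and start ATP hydrolysis, while HSP110 and BAG proteins exchange the nucleotide and release the client. HSP90 finishes the folding of kinases and receptors, and the chaperonins CCT and HSP60 enclose a client in a barrel. Heat shock factor 1 (Hsf1) switches on the inducible members (Hspa1a, Hspa1b, Hsph1, Dnajb1, Hsp90aa1) when unfolded protein builds up, whereas Hspa8 and Hsp90ab1 are the constitutive forms.

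All cells came from the reporter strain B6.Cg-Foxp3tm2(EGFP)Tch/J, hemizygous for Foxp3<tm2Tch>, in which green fluorescent protein marks cells that express Foxp3, the transcription factor of regulatory T cells. The mTO-iTreg libraries (n = 3) were made from eGFP-positive CD4+ cells sorted on day 5 from co-culture with tumour organoids of a mouse model of colorectal cancer (mTO), with 20 U/ml IL-2 and antibodies against CD3 and CD28 at 1 µg/ml each, and no TGFβ is listed among the additions. The TGFβ-iTreg libraries (n = 3) were made from eGFP-positive CD4+ cells after 5 days with TGFβ (10 ng/ml), a higher dose of IL-2 (300 U/ml) and the same antibody pair. The day 0 libraries (n = 3) hold eGFP-negative CD4+ T cells taken before any culture. The design asks how Treg cells that arise beside tumour organoids differ from those made with TGFβ. IL-2 dose, organoids and TGFβ all differ between the iTreg groups, and culture time goes with both iTreg groups, so these cannot be told apart. The labels do not say whether libraries of a group came from separate animals or cultures, or how old the animals were, so each p measures the spread between these samples only.

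Depth was 7551177 to 7969853 counts in mTO-iTreg libraries, 2078223 to 9944952 in TGFβ-iTreg libraries and 2267922 to 5328169 in day 0 libraries. Values are normalized counts (a library's counts over its own size factor), and a single count was worth 0.494 to 2.69 of them. Libraries of a group correlated at r = 0.946 to 0.950 (mTO-iTreg), 0.950 to 0.968 (TGFβ-iTreg) and 0.926 to 0.939 (day 0) across all rows. The library codes of the mTO-iTreg samples have another form than those of the other groups, so a batch that goes with that form and the mTO-iTreg group cannot be told apart. Each of 8 T cell marker genes was detected in every library, with sums of 19479 to 23636 in mTO-iTreg, 16569 to 18175 in TGFβ-iTreg and 26642 to 29008 in day 0 libraries. Of them, 3 were called higher and 4 lower between mTO-iTreg and day 0 cells, and 6 were called between TGFβ-iTreg and day 0 cells, each lower. Of 17 epithelial markers, 10 were matched, with sums of 43.7 to 157 in mTO-iTreg, 140 to 152 in TGFβ-iTreg and 18.8 to 25.3 in day 0 libraries. Epcam was 21.1 to 89.0 in mTO-iTreg, 74.1 to 113 in TGFβ-iTreg and 5.26 to 18.8 in day 0 libraries. The keratin Krt18 was 4.65 in mTO-iTreg replicate 3 and 1.75 in day 0 replicate 1 and 0 in all other libraries. Elf3 was 31.9 in mTO-iTreg replicate 3, 14.8 in TGFβ-iTreg replicate 1 and 0 in all other libraries. Cdh1 averaged 14.3 in mTO-iTreg, 37.5 in TGFβ-iTreg and 2.46 in day 0 libraries, and Lgals4 9.81, 1.29 and 5.04. Of the 3 tested epithelial genes (Epcam, Cdh1 and Lgals4), 0 were called between mTO-iTreg and TGFβ-iTreg cells. Myeloid and antigen-presenting markers summed to 2329 to 3442 in mTO-iTreg, 863 to 1144 in TGFβ-iTreg and 1395 to 8381 in day 0 libraries. In mTO-iTreg libraries most of that sum was H2-Eb1 (1410 to 2331), and between mTO-iTreg and day 0 cells 1 of 8 tested genes of the list was called higher and 4 lower. CD8 and NK cell markers summed to 1266 to 1966 in mTO-iTreg, 357 to 573 in TGFβ-iTreg and 387 to 885 in day 0 libraries, with 2 of 6 tested genes higher (Nkg7 and Eomes) and 1 lower (Klrd1) between mTO-iTreg and day 0 cells. B cell markers summed to 61.1 to 110 in mTO-iTreg, 30.6 to 74.6 in TGFβ-iTreg and 10.5 to 57.0 in day 0 libraries. The part of these markers in the results was not tested. The eGFP transcript was 262 to 462 in mTO-iTreg and 588 to 695 in TGFβ-iTreg libraries, against 26.3 to 86.5 in day 0 libraries, and Foxp3 was 37.2 to 81.0, 14.8 to 19.7 and 0 to 8.77 in the same groups. Xist, which is transcribed in female cells, was 314, 398 and 401 in mTO-iTreg, 0, 2.71 and 70.6 in TGFβ-iTreg and 3.51, 0 and 212 in day 0 libraries. It was thus high in each mTO-iTreg library, and near 0 in replicates 1 and 2 of the other groups. The labels do not give the sex of the animals. A sex difference that goes with the mTO-iTreg group cannot be told apart from it. The part of Xist and of sex in the results was not tested.

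The rows with at least 5 normalized counts in at least 3 libraries were tested, 10983 in all. These include 76 of the 78 members. The untested ones are Hspa12b, with 1 count in all 9 libraries, and Hspa1l, with 14 counts, of which 13 were in mTO-iTreg replicate 2. A gene is called higher or lower where limma's moderated test on log2(normalized count + 1) gave a Benjamini-Hochberg adjusted p, over all tested rows, under 0.05, and every adjusted p below is from that test. Log2 changes are on this scale, with the SE after ±, whereas a fold is the ratio of mean normalized counts. In bulk samples, fewer cells that express a gene and less RNA per cell cannot be told apart.

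Between mTO-iTreg and day 0 cells, 7 members were called higher and 14 lower, 27.6% of those tested, against a background of 33.9% of all tested genes. By direction the background was 19.4% higher and 14.5% lower. Between TGFβ-iTreg and day 0 cells, 2 members were called higher and 7 lower, 11.8% of those tested, where 18.6% of all genes were called (9.78% higher and 8.8% lower). Between mTO-iTreg and TGFβ-iTreg cells, 9 members were called higher and 14 lower, 30.3%, where 26.6% of all genes were called (14.9% higher and 11.8% lower). With both directions pooled, the share of called members was thus near or below the background in each comparison. By direction, 9.21% of tested members were called higher and 18.4% lower between mTO-iTreg and day 0 cells. These shares were 2.63% and 9.21% between TGFβ-iTreg and day 0 cells, and 11.8% and 18.4% between mTO-iTreg and TGFβ-iTreg cells. The higher shares lay below the background and the lower shares near or above it, a difference that was not tested. The 3 libraries of a group all lay above those of the other group for 13 members, and all below for 14, between mTO-iTreg and day 0 cells (25.8% and 20.3% of all genes). These numbers were 9 and 12 between TGFβ-iTreg and day 0 cells (18% and 17.8% of all genes), and 14 and 21 between mTO-iTreg and TGFβ-iTreg cells (25.9% and 18.7%). The members' median log2 change was -0.04 between mTO-iTreg and day 0 cells (0.09 over all genes), -0.01 between TGFβ-iTreg and day 0 cells (-0.02) and 0.01 between mTO-iTreg and TGFβ-iTreg cells (0.13). Both comparisons with day 0 share the same day 0 libraries. In all, 47 of the 76 tested members were not called in any comparison. Of the 78 members, 34 overlap another annotated gene, and reads in such stretches could belong to either gene.

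**Figure D1:**
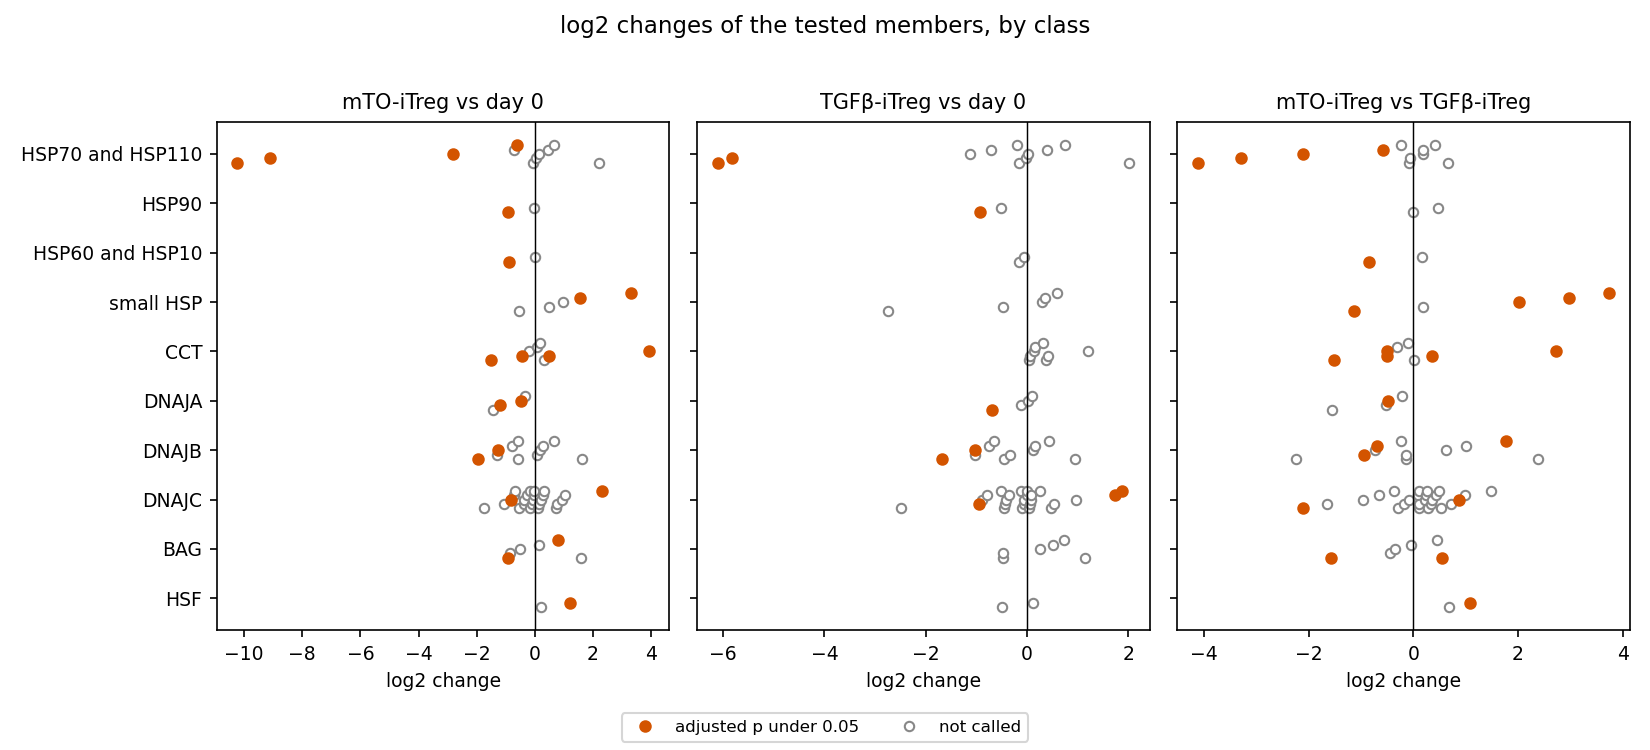
log2 changes (x axis) of the 76 tested members, 1 point each, by class (y axis), in 3 panels: mTO-iTreg over day 0, TGFβ-iTreg over day 0, and mTO-iTreg over TGFβ-iTreg; the x scales differ between panels. Filled points have an adjusted p under 0.05 (limma). Hspa1a and Hspa1b stand far to the left in all panels, and most other members lie around 0.

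The inducible HSP70 genes had the largest changes of all called members in both comparisons with day 0. Hspa1a (chr17:34969190-34972156, minus strand, GRCm38) had 2.7, 0 and 0 normalized counts in mTO-iTreg libraries and 14.8, 47.5 and 24.7 in TGFβ-iTreg libraries, against 1494.8, 2053.7 and 2101.5 in day 0 libraries. The groups lay apart in all 3 comparisons. The fall was -10.23 ± 0.57 in mTO-iTreg cells (2071-fold lower, adjusted p = 4.2e-08) and -6.11 ± 0.57 in TGFβ-iTreg cells (65.0-fold lower, adjusted p = 1.4e-05) relative to day 0 cells. Between mTO-iTreg and TGFβ-iTreg cells the change was -4.12 ± 0.57 (31.9-fold lower, adjusted p = 0.00015). The mTO-iTreg level rests on 4 counts in 3 libraries, so its folds have little precision, and without mTO-iTreg replicate 1 it was 0.

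Hspa1b (chr17:34956436-34959238, minus strand), the neighbouring copy, had 6.8, 8.1 and 8.6 normalized counts in mTO-iTreg libraries and 39.4, 160.1 and 99.3 in TGFβ-iTreg libraries, against 4273.8, 4927.2 and 5666.3 in day 0 libraries. Its order of groups was that of Hspa1a, again with no overlap. Hspa1b fell by 9.13 ± 0.38 on the log2 scale in mTO-iTreg cells (632-fold lower, adjusted p = 3.8e-09) relative to day 0 cells. The change between TGFβ-iTreg and day 0 cells was -5.83 ± 0.38 (49.8-fold lower, adjusted p = 1.7e-06). It was 12.7-fold lower in mTO-iTreg than in TGFβ-iTreg cells (-3.30 ± 0.38, adjusted p = 4e-05). The 2 genes are near-identical, and how reads that match both were counted is not given in the sources used here, so the split of counts between them is uncertain. These changes kept their calls under all 20 alternatives tried.

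**Figure D2:**
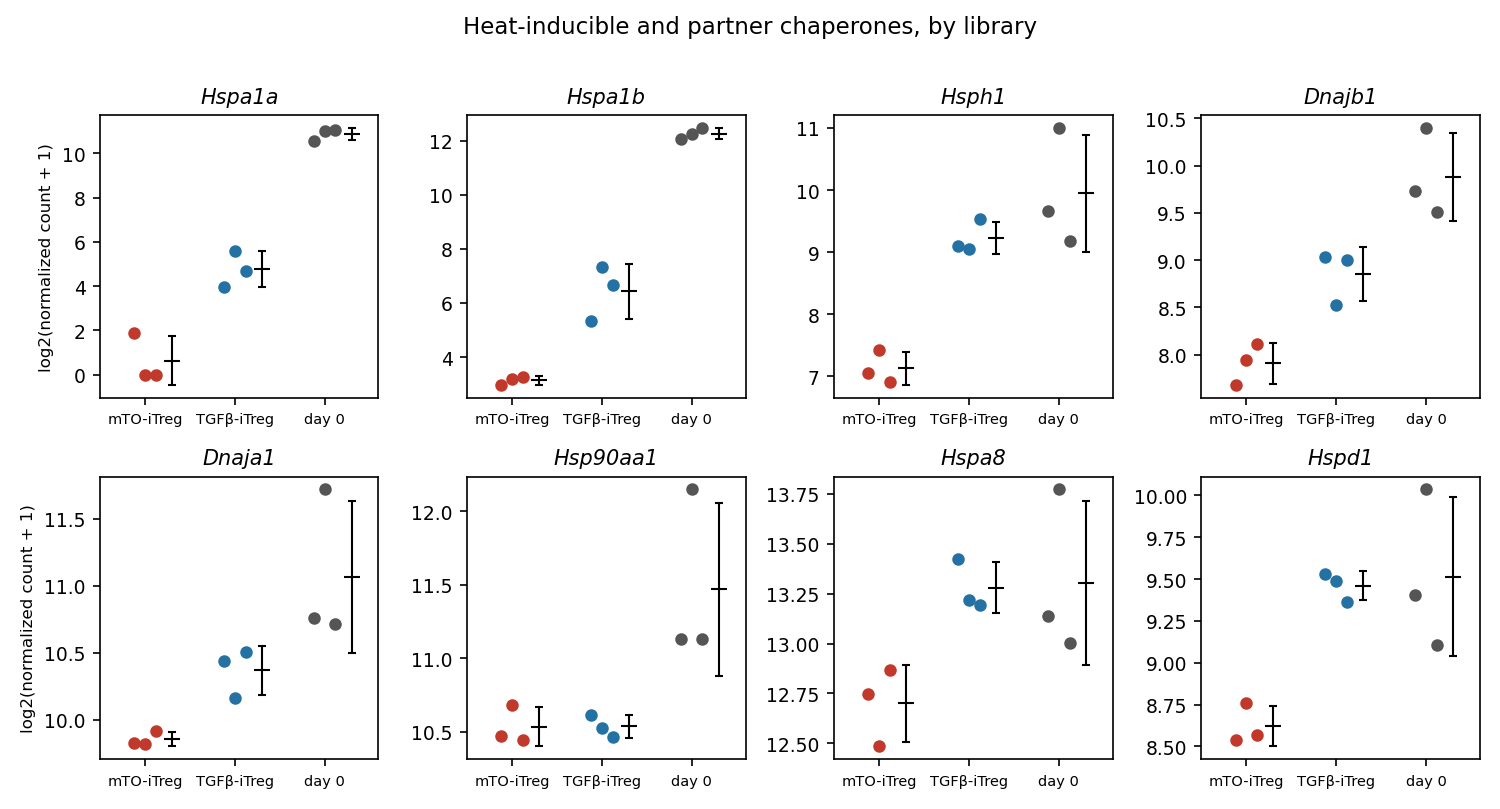
log2(normalized count + 1) (y axis) of 8 chaperone genes in each library of mTO-iTreg, TGFβ-iTreg and day 0 cells (x axis), with the group mean and SD in black; the y ranges differ between genes. Hspa1a and Hspa1b are lowest in mTO-iTreg, intermediate in TGFβ-iTreg and highest in day 0 libraries, and day 0 replicate 2 is the highest point for Hsph1, Dnajb1, Dnaja1, Hsp90aa1, Hspa8 and Hspd1.

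Together, Hspa1a and Hspa1b made up 0.000163% to 0.000185% of mTO-iTreg libraries and 0.00106% to 0.00424% of TGFβ-iTreg libraries, against 0.0958% to 0.138% of day 0 libraries. Their sum over the constitutive Hspa8, a ratio free of scaling between libraries, was 0.00139, 0.00141 and 0.00116 in mTO-iTreg and 0.00492, 0.0218 and 0.0132 in TGFβ-iTreg libraries, against 0.641, 0.499 and 0.946 in day 0 libraries. The ratio kept the 3 groups apart, lowest in mTO-iTreg libraries. The log2 ratio differed by -9.0 between mTO-iTreg and day 0 cells, by -5.90 between TGFβ-iTreg and day 0 cells and by -3.10 between mTO-iTreg and TGFβ-iTreg cells. Each gave p = 0.1 in a two-sided exact permutation test, the smallest that 3 against 3 libraries allow, and 0.12 after adjustment over 6 comparisons.

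The day 0 libraries with high Hspa1a and Hspa1b also had a high sum over a list of immediate early genes. Cells switch on genes of this class within minutes of a stimulus. The 18 matched genes of that list summed to 8056 to 10998 normalized counts in mTO-iTreg and 16403 to 21949 in TGFβ-iTreg libraries, against 33727 to 38347 in day 0 libraries. Between mTO-iTreg and day 0 cells 2 were called higher and 12 lower, and between TGFβ-iTreg and day 0 cells 1 was called higher and 7 lower. Of all tested genes, 19.4% were called higher and 14.5% lower in the first comparison, and 9.78% and 8.8% in the second. Fos, which encodes a subunit of the transcription factor AP-1, averaged 196 ± 94.9 in mTO-iTreg and 196 ± 217 in TGFβ-iTreg libraries, against 3503 ± 905 in day 0 libraries (SD, n = 3 each). Klf2, also on the list, averaged 817 ± 164, 3287 ± 231 and 3434 ± 605 in the same groups. Ier3 went the other way, with 40.0 ± 16.8 in mTO-iTreg, 3.80 ± 1.55 in TGFβ-iTreg and 1.29 ± 1.13 in day 0 libraries. Nr4a1 was also higher in mTO-iTreg than in day 0 cells (adjusted p = 0.016). Egr1 and Egr2 were not called in either comparison with day 0 cells. The part of the immediate early genes in the Hspa1a and Hspa1b result was not tested.

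Their upstream sequences are shown because both genes moved together. In the 250 bases before the start site (RefSeq, GRCm38.p6), Hspa1a and Hspa1b are identical at 247 positions (98.8%). Counted from 1 at the 5′ end of the window, Hspa1b differs from Hspa1a by C44T, T47C and T249G. The start sites lie 12918 bases apart. Capitals mark the letters GAANNTTC, 2 inverted GAA units of the heat shock element that Hsf1 binds, searched together with TTCNNGAA. Both words read the same on either strand, and they can overlap each other.
Hspa1a, chr17:34972157-34972406, minus strand: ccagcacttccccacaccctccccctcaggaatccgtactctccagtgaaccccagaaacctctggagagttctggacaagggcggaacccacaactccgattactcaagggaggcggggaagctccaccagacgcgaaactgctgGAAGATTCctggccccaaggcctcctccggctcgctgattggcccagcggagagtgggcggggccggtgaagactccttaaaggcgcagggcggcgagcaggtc
Hspa1b, chr17:34959239-34959488, minus strand: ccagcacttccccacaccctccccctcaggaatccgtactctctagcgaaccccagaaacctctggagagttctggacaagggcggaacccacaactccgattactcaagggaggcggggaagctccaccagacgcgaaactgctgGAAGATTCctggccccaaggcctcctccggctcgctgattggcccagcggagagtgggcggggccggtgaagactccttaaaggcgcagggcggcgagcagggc
The capitals start at position -104 in both windows, in a stretch without a difference between the copies. The testis-expressed relative Hspa1l starts 547 bases from Hspa1a, and had 14 counts in all 9 libraries.

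Of the 64 members with a window in the RefSeq table (250 bases before to 50 after the start), 17 (26.6%) held GAANNTTC or TTCNNGAA, against 17.0% of all genes in that table. A longer run of 3 units was GAANNTTC followed by NNGAA, or TTCNNGAA followed by NNTTC. It stood in windows of 4 members (6.25%), Dnajb6, Hspd1, Hspe1 and Hsph1, and of 0.662% of all genes. The runs of Hspd1 and Hspe1 are the same stretch read on opposite strands, and Hspa1a and Hspa1b have near-identical windows. The members are therefore not independent sites, and neither share was tested against that of all genes. Of the 17 members with a pair of units, 1 was called higher and 6 lower between mTO-iTreg and day 0 cells. Of the 45 tested members without one, 5 were called higher and 6 lower (all genes: 19.4% and 14.5%). Between TGFβ-iTreg and day 0 cells these counts were 0 and 3 with a pair, and 1 and 3 without (9.78% and 8.8%). Between mTO-iTreg and TGFβ-iTreg cells they were 2 and 6 with a pair, and 7 and 7 without (14.9% and 11.8%). A difference between members with and without a pair was not tested. A match is a description of letters, not a sign of binding.

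The exchange factors of HSP70 split. Hsph1, an HSP110 protein induced by heat, had 131.6, 171.2 and 118.9 normalized counts in mTO-iTreg libraries and 546.0, 531.7 and 737.6 in TGFβ-iTreg libraries, against 805.3, 2042.9 and 579.2 in day 0 libraries. The mTO-iTreg libraries lay below all others, while TGFβ-iTreg and day 0 libraries overlapped. Hsph1 fell 8.13-fold in mTO-iTreg relative to day 0 cells (-2.82 ± 0.35, adjusted p = 4.1e-05) and was 4.30-fold lower than in TGFβ-iTreg cells (-2.10 ± 0.35, adjusted p = 0.00064). Without day 0 replicate 2 the fall was 4.92-fold (-2.29 ± 0.23, adjusted p = 2.1e-05). The difference between TGFβ-iTreg and day 0 cells was -0.72 ± 0.35 (adjusted p = 0.17). The relatives Hspa4 and Hspa4l were not called in any comparison: Hspa4 averaged 705 ± 59.7 in mTO-iTreg, 829 ± 79.5 in TGFβ-iTreg and 635 ± 75.5 in day 0 libraries. Hspa4l had 28.1, 137.1 and 65.4 in day 0 libraries, and when that replicate 2 was left out it was called, higher in both iTreg groups (adjusted p = 0.036 in mTO-iTreg and 0.0498 in TGFβ-iTreg cells). Hsph1 holds TTCTCGAA 33 bases before its start, shown in capitals.
Hsph1, chr5:149636337-149636436, minus strand: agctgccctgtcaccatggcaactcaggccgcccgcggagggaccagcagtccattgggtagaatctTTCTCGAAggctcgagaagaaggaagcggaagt

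Hspa8, which encodes the constitutive HSC70, had 6882.6, 5732.6 and 7461.0 normalized counts in mTO-iTreg libraries and 10999.3, 9520.9 and 9378.0 in TGFβ-iTreg libraries, against 9003.8, 13983.3 and 8215.1 in day 0 libraries. It was lower in mTO-iTreg than in TGFβ-iTreg cells (-0.58 ± 0.17, adjusted p = 0.024) and than in day 0 cells (-0.60 ± 0.17, adjusted p = 0.015). These differences are small beside those of its inducible relatives. The second call was lost with libraries scaled to equal totals, without day 0 replicate 2 (adjusted p = 0.0567) and without mTO-iTreg replicate 2 (0.0651), and the first without mTO-iTreg replicate 1, mTO-iTreg replicate 2 or TGFβ-iTreg replicate 1 (0.0506 to 0.0927). Hspa9, the mitochondrial HSP70, averaged 391 ± 89.0 in mTO-iTreg, 251 ± 74.2 in TGFβ-iTreg and 282 ± 38.0 in day 0 libraries, and was not called in any comparison. Of 11 tested HSP70 and HSP110 genes, 4 were called between mTO-iTreg and day 0 cells, 2 between TGFβ-iTreg and day 0 cells and 4 between mTO-iTreg and TGFβ-iTreg cells, each of them lower. These are 36.4%, 18.2% and 36.4% of the class, where 33.9%, 18.6% and 26.6% of all tested genes were called. Of all tested genes, 14.5%, 8.8% and 11.8% were called lower.

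Dnajb1 (HSP40), the J-domain protein that works with inducible HSP70, fell in the same order. It had 203.9, 245.0 and 275.0 normalized counts in mTO-iTreg libraries and 523.9, 367.6 and 511.3 in TGFβ-iTreg libraries, against 847.4, 1346.7 and 729.0 in day 0 libraries, with no overlap between any groups. It was 4.04-fold lower in mTO-iTreg (-1.97 ± 0.23, adjusted p = 2.3e-05) and 2.08-fold lower in TGFβ-iTreg than in day 0 cells (-1.02 ± 0.23, adjusted p = 0.0068). The direct difference between mTO-iTreg and TGFβ-iTreg cells was -0.94 ± 0.23 (adjusted p = 0.0076). No pair of units was found in its windows.

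Dnaja1, a farnesylated J-domain partner of HSC70, had 906.4, 902.6 and 965.2 normalized counts in mTO-iTreg libraries and 1384.8, 1143.4 and 1451.0 in TGFβ-iTreg libraries, against 1731.6, 3373.5 and 1678.5 in day 0 libraries. It fell 2.45-fold in mTO-iTreg relative to day 0 cells (-1.21 ± 0.22, adjusted p = 0.00072), a call kept without day 0 replicate 2 (adjusted p = 0.00062). The fall in TGFβ-iTreg cells (-0.70 ± 0.22, adjusted p = 0.038) was lost without day 0 replicate 2 (-0.37 ± 0.14, adjusted p = 0.109), without mTO-iTreg replicate 3 and without each TGFβ-iTreg replicate (0.0510 to 0.128). Its window holds GAAAATTC, and the stretch from 150 to 51 bases before the start is shown for comparison with the HSP70 genes.
Dnaja1, chr4:40722318-40722417, plus strand: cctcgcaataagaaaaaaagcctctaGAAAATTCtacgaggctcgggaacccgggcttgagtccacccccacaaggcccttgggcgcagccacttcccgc
Dnaja2, its close relative, averaged 1154 ± 51.6 in mTO-iTreg, 1622 ± 156 in TGFβ-iTreg and 1605 ± 195 in day 0 libraries. It was lower in mTO-iTreg cells than in day 0 cells (-0.47 ± 0.13, adjusted p = 0.012, but 0.0549 without day 0 replicate 1, and no call with equal totals) and than in TGFβ-iTreg cells (-0.49 ± 0.13, adjusted p = 0.013, but 0.0554 without TGFβ-iTreg replicate 3).

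Of the HSP90 genes, 1 was called. The inducible Hsp90aa1 had 1420.7, 1644.5 and 1388.3 normalized counts in mTO-iTreg libraries and 1569.2, 1471.0 and 1413.0 in TGFβ-iTreg libraries, against 2238.7, 4542.8 and 2239.7 in day 0 libraries. It was 2.03-fold lower in each iTreg group than in day 0 cells (-0.94 ± 0.22, adjusted p = 0.0043 in mTO-iTreg and -0.93 ± 0.22, adjusted p = 0.0087 in TGFβ-iTreg cells). Without day 0 replicate 2 these changes were -0.60 ± 0.13 (adjusted p = 0.0045) and -0.59 ± 0.13 (adjusted p = 0.010). The difference between mTO-iTreg and TGFβ-iTreg cells was -0.00 ± 0.22 (adjusted p = 0.99). The constitutive Hsp90ab1 had 7259.7, 9810.7 and 9720.9 in mTO-iTreg libraries and 6704.9, 7099.8 and 5352.5 in TGFβ-iTreg libraries, against 8581.0, 12504.9 and 6842.6 in day 0 libraries, and was not called in any comparison (adjusted p = 0.082 to 0.93).

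The ratio of Hsp90aa1 to Hsp90ab1 was 0.196, 0.168 and 0.143 in mTO-iTreg and 0.234, 0.207 and 0.264 in TGFβ-iTreg libraries, against 0.261, 0.363 and 0.327 in day 0 libraries. The mTO-iTreg libraries had the lowest ratios, and TGFβ-iTreg and day 0 libraries overlapped. On the log2 scale it differed by -0.91 between mTO-iTreg and day 0 cells (two-sided exact permutation p = 0.1, adjusted 0.12) and by -0.48 between mTO-iTreg and TGFβ-iTreg cells (exact p = 0.1, adjusted 0.12). Between TGFβ-iTreg and day 0 cells the difference was -0.43 (exact p = 0.2, adjusted 0.2).

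Hspd1 and Hspe1 encode HSP60 and HSP10, the barrel and the lid of the mitochondrial chaperonin, and are transcribed in opposite directions on chromosome 1 from start sites 111 bases apart, with annotated genes that overlap. Hspd1 had 370.4, 433.0 and 378.6 normalized counts in mTO-iTreg libraries and 737.9, 717.5 and 658.1 in TGFβ-iTreg libraries, against 675.5, 1048.3 and 549.6 in day 0 libraries. It was lower in mTO-iTreg cells than in day 0 cells (-0.89 ± 0.20, adjusted p = 0.0038) and than in TGFβ-iTreg cells (-0.84 ± 0.20, adjusted p = 0.0075). Hspe1 had 3009.9, 3500.0 and 4345.6 in mTO-iTreg libraries and 3288.5, 3809.3 and 2610.5 in TGFβ-iTreg libraries, against 2856.2, 4862.7 and 3228.2 in day 0 libraries. All its groups overlapped, and its changes were 0.01 ± 0.20 between mTO-iTreg and day 0 cells and 0.16 ± 0.20 between mTO-iTreg and TGFβ-iTreg cells (adjusted p = 0.98 and 0.58). The paired genes thus had different calls, though a difference between their changes was not tested. A stretch before the RefSeq start of Hspe1, which also lies in the RefSeq window of an Hspd1 start and inside the GENCODE gene Hspd1, holds 3 overlapping matches, in capitals here on the Hspe1 strand.
Hspe1 and Hspd1, chr1:55088053-55088082, plus strand: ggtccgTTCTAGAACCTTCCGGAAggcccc

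CCT is a cytosolic barrel of 8 different subunits that folds actin and tubulin, with each subunit once in a ring. The 8 genes taken by name, Cct2 to Cct8, include the paralogs Cct6a and Cct6b and leave out the alpha subunit, which is named Tcp1. Tcp1 averaged 372 ± 59.9 in mTO-iTreg, 311 ± 26.7 in TGFβ-iTreg and 267 ± 67.3 in day 0 libraries and was not called in any comparison. The 8 genes moved in both directions. Of these, 2 were called higher and 2 lower between mTO-iTreg and day 0 cells, and 2 higher and 3 lower between mTO-iTreg and TGFβ-iTreg cells. The called share was 50% and 62.5% in these comparisons, against 33.9% and 26.6% of all tested genes. Between TGFβ-iTreg and day 0 cells, limma called 0, with 2 at an unadjusted p under 0.05 and 0 by limma-voom. The sum of the 8 genes was 0.176% to 0.182% of mTO-iTreg libraries, 0.217% to 0.248% of TGFβ-iTreg libraries and 0.154% to 0.206% of day 0 libraries.

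Cct8, the theta subunit (chr16:87483326-87495873), had 1094.7, 1126.5 and 1106.7 normalized counts in mTO-iTreg libraries and 3463.1, 3287.1 and 2851.1 in TGFβ-iTreg libraries, against 2963.2, 3714.9 and 2746.1 in day 0 libraries. The mTO-iTreg libraries agreed closely and lay far below all others. Cct8 was 2.83-fold lower in mTO-iTreg than in day 0 cells (-1.49 ± 0.13, adjusted p = 2.3e-06) and 2.89-fold lower than in TGFβ-iTreg cells (-1.52 ± 0.13, adjusted p = 3.6e-06), whereas TGFβ-iTreg and day 0 cells differed by 0.03 ± 0.13 (adjusted p = 0.89). Both calls held under all 20 alternatives. Cct8 overlaps Usp16 on the opposite strand, and the strand setting of the counting is not given in the sources used here. Usp16 averaged 87.1 ± 15 in mTO-iTreg, 72.4 ± 35.7 in TGFβ-iTreg and 174 ± 37.6 in day 0 libraries, and was lower in mTO-iTreg (adjusted p = 0.043) and in TGFβ-iTreg cells (adjusted p = 0.016) than in day 0 cells.

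Cct7, the eta subunit, had 2156.6, 1756.8 and 1929.7 normalized counts in mTO-iTreg libraries and 1488.1, 1557.8 and 1470.3 in TGFβ-iTreg libraries, against 1373.7, 1532.2 and 1229.0 in day 0 libraries. It moved the other way from Cct8, higher in mTO-iTreg than in day 0 cells (0.50 ± 0.12, adjusted p = 0.0070, below 0.05 in all 20 alternatives). The rise over TGFβ-iTreg cells (0.37 ± 0.12, adjusted p = 0.043) was lost without any of TGFβ-iTreg replicates 1 to 3, mTO-iTreg replicate 1 or 3, or day 0 replicate 1 (0.0558 to 0.152). Cct6a, the zeta subunit, averaged 964 ± 68.7 in mTO-iTreg, 1371 ± 112 in TGFβ-iTreg and 1333 ± 313 in day 0 libraries. Its lower calls in mTO-iTreg cells (-0.44 ± 0.16, adjusted p = 0.041 against day 0, and -0.51 ± 0.16, adjusted p = 0.028 against TGFβ-iTreg cells) did not hold when single libraries were left out. The first was lost without TGFβ-iTreg replicate 1 or 2, day 0 replicate 2 or any mTO-iTreg replicate (0.0505 to 0.182), and the second without TGFβ-iTreg replicate 1 or 2 or mTO-iTreg replicate 1 or 2 (0.0709 to 0.0935).

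Cct6b, a paralog of the zeta subunit known from testis, had 21.1, 16.7 and 8.0 normalized counts in mTO-iTreg libraries and 2.5, 1.4 and 0.5 in TGFβ-iTreg libraries, and was 0 in all day 0 libraries. It overlaps 3 other annotated genes, 1 of them on the same strand. Against a floor of 3 counts over the day 0 group, it was at least 9.63-fold higher in mTO-iTreg cells (adjusted p = 0.0034). It was 10.6-fold higher than in TGFβ-iTreg cells (adjusted p = 0.033), a call lost without mTO-iTreg replicate 1 or 2 or TGFβ-iTreg replicate 2 or 3 (0.0745 to 0.114), and 16.5-fold without TGFβ-iTreg replicate 1. The remaining call was Cct3, named after its values were seen, with 412 ± 10.7 in mTO-iTreg and 585 ± 43.3 in TGFβ-iTreg libraries (-0.50 ± 0.17, adjusted p = 0.048). It was lost without each mTO-iTreg or TGFβ-iTreg replicate and without day 0 replicate 3 (0.0545 to 0.141).

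**Figure D3:**
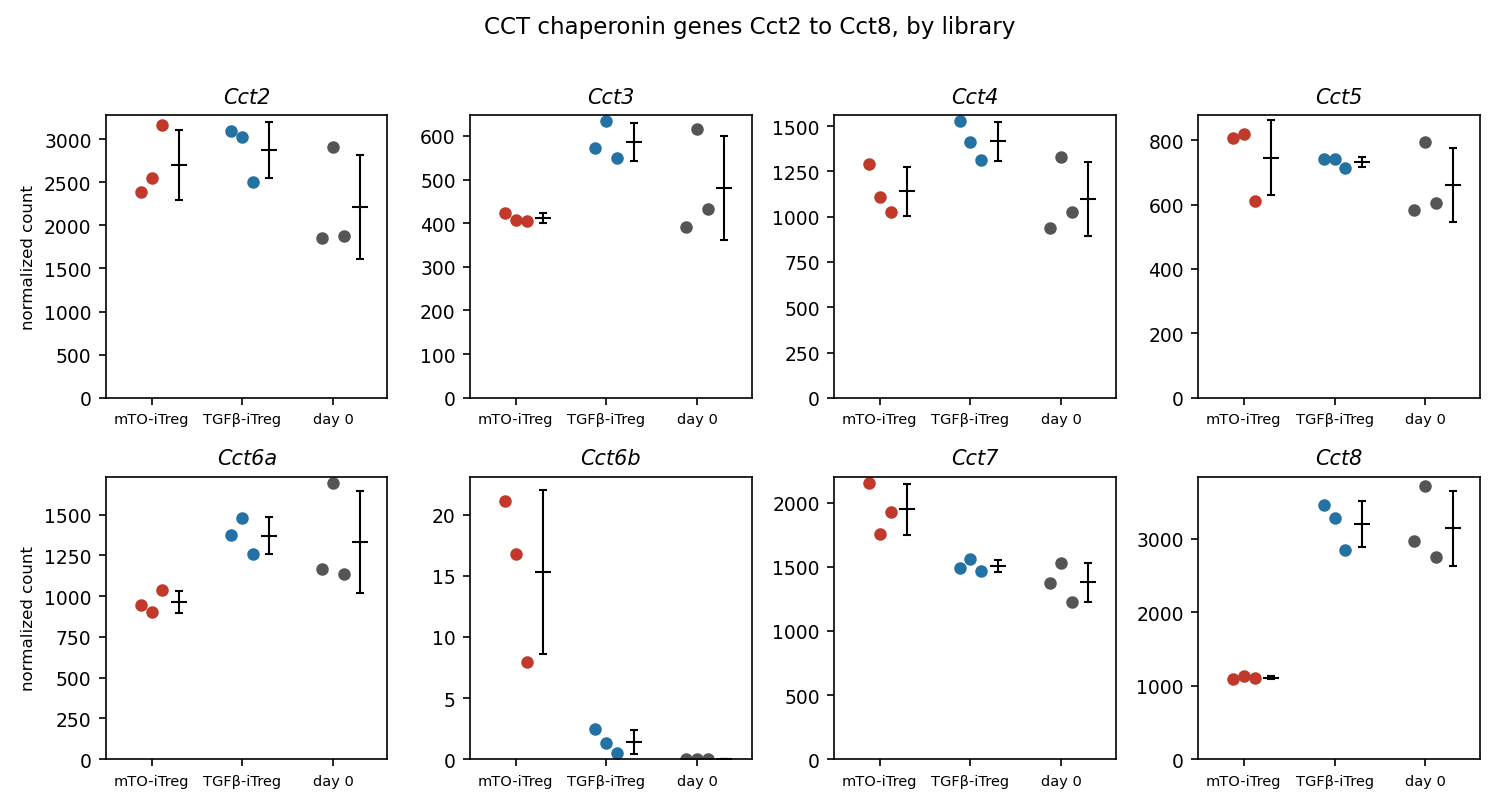
Normalized counts (y axis, from 0, ranges differ) of the 8 CCT genes Cct2 to Cct8 (Cct6a and Cct6b apart) in each library of mTO-iTreg, TGFβ-iTreg and day 0 cells (x axis), with the group mean and SD in black. Cct8 is between 1094.7 and 1126.5 in mTO-iTreg libraries and at or above 2746.1 in all others, and the day 0 replicate 2 point is the highest of its group for 7 of the 8 genes.

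The small heat shock proteins, which hold unfolded proteins without ATP, included members with large rises in mTO-iTreg cells. Hspb6 (HSP20; chr7:30552178-30555443, plus strand) had 251.0, 140.2 and 141.5 normalized counts in mTO-iTreg libraries and 24.6, 14.2 and 25.7 in TGFβ-iTreg libraries, against 14.0, 34.9 and 8.4 in day 0 libraries. It was 9.28-fold higher in mTO-iTreg than in day 0 cells (3.32 ± 0.52, adjusted p = 0.0003) and 8.26-fold higher than in TGFβ-iTreg cells (2.98 ± 0.52, adjusted p = 0.00099). Without day 0 replicate 2 the rise over day 0 cells was 15.8-fold (3.85 ± 0.48, adjusted p = 0.0001). TGFβ-iTreg and day 0 libraries overlapped (0.34 ± 0.52, adjusted p = 0.70). Hspb6 overlaps Lin37 on the opposite strand, which averaged 153 ± 24.3 in mTO-iTreg, 191 ± 31.6 in TGFβ-iTreg and 170 ± 6.40 in day 0 libraries and was not called, and Proser3, which was not used here.

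Hspb11, which is named with this family but encodes a subunit of intraflagellar transport (IFT25), had 480.8, 402.0 and 550.0 normalized counts in mTO-iTreg libraries and 152.5, 124.8 and 80.5 in TGFβ-iTreg libraries, against 221.1, 134.4 and 140.3 in day 0 libraries. It was 2.89-fold higher in mTO-iTreg than in day 0 cells (1.55 ± 0.27, adjusted p = 0.00062) and 4.0-fold higher than in TGFβ-iTreg cells (2.03 ± 0.27, adjusted p = 0.00012). The calls of Hspb6 and Hspb11 held under all 20 alternatives. Hspb11 overlaps Gm12850 on the same strand, which has no values in the data used here, so its share of the reads cannot be seen. Hspb1 (HSP27) was scarce, with 14.3, 2.5 and 43.8 in mTO-iTreg libraries, 0 in all TGFβ-iTreg libraries and 0, 16.1 and 16.9 in day 0 libraries. Against a floor of 3 counts over the TGFβ-iTreg group it was at least 26.3-fold higher in mTO-iTreg cells (adjusted p = 0.036), a call lost without mTO-iTreg replicate 1 or 3 or any TGFβ-iTreg replicate (0.0748 to 0.148). Hspbap1, which binds HSP27 and is named here after its values were seen, averaged 45.9 ± 15.7 in mTO-iTreg and 99.4 ± 24.5 in TGFβ-iTreg libraries (-1.14 ± 0.39, adjusted p = 0.047). That call was lost without each replicate of either group and without day 0 replicate 3 (0.0511 to 0.165).

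The DNAJC class is the widest, with 25 members, and most were not called. Between mTO-iTreg and day 0 cells 1 was called higher and 1 lower, between TGFβ-iTreg and day 0 cells 2 higher and 1 lower, and between mTO-iTreg and TGFβ-iTreg cells 1 higher and 1 lower. These are 8%, 12% and 8% of the class, against 33.9%, 18.6% and 26.6% of all tested genes. The log2 changes of the members without a call spanned -1.75 to 1.05, -2.48 to 0.97 and -1.64 to 1.48 in these comparisons. Dnajc15 (MCJ), a J-domain protein of the inner mitochondrial membrane known to restrain respiratory complex I in mouse cells, had 238.7, 147.0 and 170.7 normalized counts in mTO-iTreg libraries and 846.1, 655.1 and 861.6 in TGFβ-iTreg libraries, against 226.3, 198.9 and 282.7 in day 0 libraries. It set the TGFβ-iTreg libraries apart from all others. Dnajc15 was 3.34-fold higher in TGFβ-iTreg than in day 0 cells (1.74 ± 0.22, adjusted p = 0.00013) and 4.25-fold lower in mTO-iTreg than in TGFβ-iTreg cells (-2.10 ± 0.22, adjusted p = 1.6e-05), while mTO-iTreg and day 0 cells differed by -0.36 ± 0.22 (adjusted p = 0.22).

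Dnajc3 (p58IPK), a co-chaperone of the endoplasmic reticulum HSP70, had the opposite pattern, with 396.3, 385.2 and 430.4 normalized counts in mTO-iTreg libraries and 241.0, 176.3 and 251.5 in TGFβ-iTreg libraries, against 403.5, 448.9 and 436.8 in day 0 libraries. It was 1.93-fold lower in TGFβ-iTreg than in day 0 cells (-0.96 ± 0.18, adjusted p = 0.0022) and 1.81-fold higher in mTO-iTreg than in TGFβ-iTreg cells (0.87 ± 0.18, adjusted p = 0.0027). Dnajc12, a co-chaperone of the aromatic amino acid hydroxylases, had 155.5, 51.5 and 97.6 in mTO-iTreg libraries and 100.8, 51.5 and 61.3 in TGFβ-iTreg libraries, against 15.8, 21.5 and 16.9 in day 0 libraries. It was 5.62-fold higher in mTO-iTreg (2.30 ± 0.45, adjusted p = 0.0015) and 3.94-fold higher in TGFβ-iTreg than in day 0 cells (1.87 ± 0.45, adjusted p = 0.011, but 0.0543 without TGFβ-iTreg replicate 1). Dnajc21, which acts in the maturation of the large ribosomal subunit, averaged 151 ± 16.0 in mTO-iTreg, 195 ± 16.6 in TGFβ-iTreg and 267 ± 55.2 in day 0 libraries, and fell in mTO-iTreg relative to day 0 cells (-0.81 ± 0.21, adjusted p = 0.0093).

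**Figure D4:**
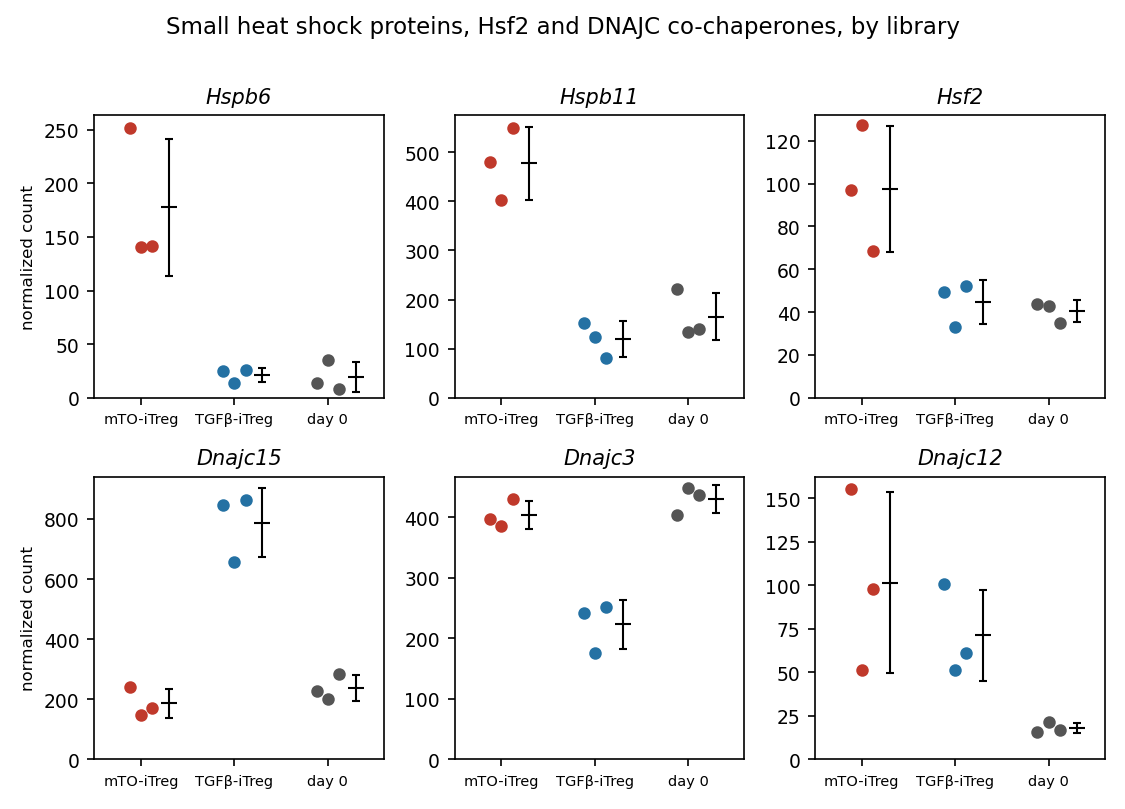
Normalized counts (y axis, from 0, ranges differ) of Hspb6, Hspb11, Hsf2, Dnajc15, Dnajc3 and Dnajc12 in each library of mTO-iTreg, TGFβ-iTreg and day 0 cells (x axis), with the group mean and SD in black. Hspb6, Hspb11 and Hsf2 are highest in the mTO-iTreg libraries, Dnajc15 is high and Dnajc3 low in the TGFβ-iTreg libraries only, and Dnajc12 is higher in both iTreg groups than in day 0 libraries.

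Of 11 DNAJB genes, 2 (18.2%, against 33.9% of all tested genes) were called between mTO-iTreg and day 0 cells, both lower. Besides Dnajb1, this was Dnajb9 (ERdj4), a co-chaperone induced by the unfolded protein response of the endoplasmic reticulum, with 24.6, 50.9 and 44.5 normalized counts in mTO-iTreg libraries and 36.9, 47.5 and 51.9 in TGFβ-iTreg libraries, against 89.5, 94.1 and 94.9 in day 0 libraries. Both iTreg groups lay below the day 0 libraries. Dnajb9 fell by 1.26 ± 0.37 on the log2 scale in mTO-iTreg cells (adjusted p = 0.018, but 0.0739 without mTO-iTreg replicate 1), and the difference in TGFβ-iTreg cells was -1.03 ± 0.37 (adjusted p = 0.071). Dnajb11 (ERdj3) averaged 171 ± 49.8 in mTO-iTreg and 271 ± 41.3 in TGFβ-iTreg libraries (-0.69 ± 0.23, adjusted p = 0.040), a call lost without mTO-iTreg replicate 1 or 3 or TGFβ-iTreg replicate 1 or 3 (0.0875 to 0.138). Dnajb2, a J-domain protein that binds ubiquitin chains, had 43.7, 36.6 and 63.8 in mTO-iTreg libraries and 4.9, 23.1 and 17.8 in TGFβ-iTreg libraries, against 35.1, 53.8 and 44.3 in day 0 libraries. Its rise in mTO-iTreg over TGFβ-iTreg cells (1.78 ± 0.56, adjusted p = 0.030) was lost without mTO-iTreg replicate 1 or 3 or TGFβ-iTreg replicate 1 (0.0684 to 0.110). Its fall in TGFβ-iTreg relative to day 0 cells (-1.69 ± 0.56, adjusted p = 0.049) was lost without any single library other than TGFβ-iTreg replicate 2 (0.0602 to 0.160).

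Among the BAG proteins, Bag6, which sorts tail-anchored membrane proteins and misfolded clients, had 390.1, 451.0 and 459.7 normalized counts in mTO-iTreg libraries and 290.2, 282.1 and 309.8 in TGFβ-iTreg libraries, against 226.3, 260.7 and 253.2 in day 0 libraries. The groups did not overlap, with mTO-iTreg libraries highest. Bag6 was 1.76-fold higher in mTO-iTreg than in day 0 cells (0.81 ± 0.16, adjusted p = 0.0017) and 1.47-fold higher than in TGFβ-iTreg cells (0.56 ± 0.16, adjusted p = 0.022, but 0.0582 to 0.0683 without mTO-iTreg replicate 2 or 3 or TGFβ-iTreg replicate 1 or 2). Bag3, which links HSP70 to autophagy and is induced by Hsf1, had 17.1, 9.9 and 10.6 in mTO-iTreg libraries and 61.5, 33.2 and 27.7 in TGFβ-iTreg libraries, against 15.8, 37.6 and 20.0 in day 0 libraries. Its lower level in mTO-iTreg than in TGFβ-iTreg cells (-1.58 ± 0.55, adjusted p = 0.047) was lost without each replicate of either group and without day 0 replicate 3 (0.0545 to 0.172). Bag5, an inhibitor of chaperone-assisted refolding, averaged 126 ± 53.6 in mTO-iTreg and 232 ± 60.2 in day 0 libraries (-0.93 ± 0.32, adjusted p = 0.036), a call lost without mTO-iTreg replicate 2 or 3 or day 0 replicate 1 or 3 (0.0671 to 0.153). Bag1 averaged 310 ± 13.2 in mTO-iTreg, 395 ± 52.2 in TGFβ-iTreg and 278 ± 31.0 in day 0 libraries and was not called.

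Of the heat shock factors, Hsf1 averaged 193 ± 37.2 in mTO-iTreg, 120 ± 25.4 in TGFβ-iTreg and 167 ± 18.3 in day 0 libraries, and was not called (adjusted p = 0.051 to 0.56). Its activity is set by protein state, which these data do not measure. Hsf2, a second factor that binds the same element, had 96.9, 127.2 and 68.4 normalized counts in mTO-iTreg libraries and 49.2, 33.2 and 52.4 in TGFβ-iTreg libraries, against 43.9, 43.0 and 34.8 in day 0 libraries. It was higher in mTO-iTreg than in day 0 cells (1.21 ± 0.37, adjusted p = 0.021), a call lost without mTO-iTreg replicate 1 or 2 or day 0 replicate 3 (0.0593 to 0.0912). The difference from TGFβ-iTreg cells (1.08 ± 0.37, adjusted p = 0.044) was lost without mTO-iTreg replicate 1 or 2 or any TGFβ-iTreg replicate (0.0654 to 0.156).

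Genes outside the families were counted from 2 lists of chaperone partners. For comparison, 19.4% of all tested genes were called higher and 14.5% lower between mTO-iTreg and day 0 cells. These shares were 9.78% and 8.8% between TGFβ-iTreg and day 0 cells, and 14.9% and 11.8% between mTO-iTreg and TGFβ-iTreg cells. In both directions together they were 33.9%, 18.6% and 26.6%. Neither list was tested against these shares. Of 23 tested HSF1 and HSP90 partner genes, 5 were called higher and 4 lower between mTO-iTreg and day 0 cells (median log2 change -0.26), 1 lower between TGFβ-iTreg and day 0 cells (-0.12, Ptges3, lost without TGFβ-iTreg replicate 2 or 3 or any day 0 replicate, adjusted p 0.0560 to 0.139), and 6 higher and 2 lower between mTO-iTreg and TGFβ-iTreg cells (0.11). Of the 6, Aarsd1 was lost without mTO-iTreg replicate 1 or 2 or TGFβ-iTreg replicate 1 (0.0594 to 0.0852). Clpb, a mitochondrial disaggregase, averaged 151 ± 31.9 in mTO-iTreg, 52.6 ± 17.2 in TGFβ-iTreg and 48.1 ± 12.6 in day 0 libraries, 3.15-fold higher in mTO-iTreg than in day 0 cells (adjusted p = 0.0028). Tsc22d3, the glucocorticoid-induced leucine zipper, was 2.46-fold lower in mTO-iTreg than in day 0 cells (adjusted p = 0.00018). Of 17 tested folding partners of CCT and of mitochondrial chaperones, 5 were called between mTO-iTreg and day 0 cells, 2 between TGFβ-iTreg and day 0 cells and 3 between mTO-iTreg and TGFβ-iTreg cells, each of them higher. Both calls between TGFβ-iTreg and day 0 cells were lost when single libraries were left out, Pfdn1 without TGFβ-iTreg replicate 2 or 3 or day 0 replicate 1 or 2 (0.0610 to 0.107), and Grpel1 without mTO-iTreg replicate 2, any TGFβ-iTreg replicate or day 0 replicate 1 or 3 (0.0592 to 0.160). Between mTO-iTreg and day 0 cells, Pfdn1 was lost without mTO-iTreg replicate 2 or 3 or any day 0 replicate (0.0502 to 0.104), and Pfdn5 without mTO-iTreg replicate 1 or day 0 replicate 1 (0.0577 to 0.0593). Vbp1, a subunit of prefoldin, which hands clients to CCT, rose 1.87-fold in mTO-iTreg relative to day 0 cells (adjusted p = 0.0016). Afg3l2, a protease of the inner mitochondrial membrane, rose 2.22-fold (adjusted p = 0.0010), and Grpel1, the exchange factor of Hspa9, rose 1.79-fold (adjusted p = 0.0043).

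One day 0 library stood apart for these genes. Day 0 replicate 2 had the highest value of its group in 42 of 76 members (55.3%), whereas over all tested rows the share was 33.1%. Day 0 replicate 2 was highest in 7 of 8 CCT genes, 3 of 4 DNAJA genes and both genes each of HSP90 and of HSP60 and HSP10. It was highest in 9 of 25 DNAJC genes. The other CCT gene, Cct6b, was 0 in all day 0 libraries and so has no highest library. Ties were given to the lower replicate number, in the members and in all tested rows. Hsph1 was 2.95 times, Hsp90aa1 2.03 times, Dnaja1 1.98 times and Hspd1 1.71 times the mean of the other day 0 libraries. The HSF1 and HSP90 partner genes summed to 11626 in that library against 9193 and 9181 in day 0 replicates 1 and 3. Its Hspa1a and Hspa1b sum (6981 against 5769 and 7768) and its immediate early sum (33727 against 35887 and 38347) were not the highest. All members together made up 0.809% to 0.907% of mTO-iTreg, 0.915% to 1.00% of TGFβ-iTreg and 0.884%, 1.23% and 0.931% of day 0 libraries. This library was also among the shallowest, with 2267922 counts. What set it apart was not tested.

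**Figure D5:**
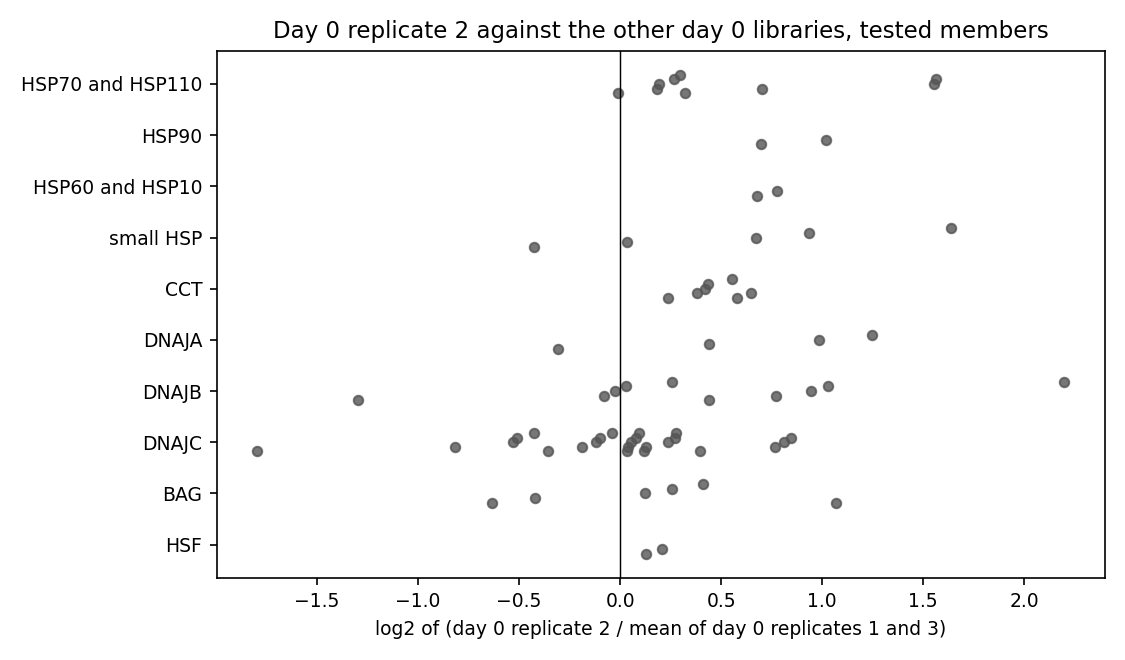
log2 ratio of day 0 replicate 2 to the mean of day 0 replicates 1 and 3 (x axis) for 71 tested members with values above 0 in both, 1 point each, by class (y axis). The HSP90, HSP60 and HSP10 and CCT points all lie to the right of 0, where day 0 replicate 2 is higher, and the DNAJC points spread around 0.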

How the data were processed

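Libraries of 9 samples in 3 groups were made by a modified CEL-Seq protocol, which counts the 3′ ends of transcripts, per the labels' protocols. The submitters' processing notes name BWA, mm10 and DESeq2; their versions, the annotation and the strand setting are not stated there. The authors deposited 1 table of counts over a DESeq2 size factor for each library, written with decimal commas. Dividing each library by the value of its smallest count gave whole numbers within 0.1 for 100% of values, which gives the depths printed; of 14912 rows, 296 were 0 throughout.

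Rows with at least 5 in at least 3 libraries were fitted by limma's moderated test with a trend (limma 3.58.1, R 4.3.3) on log2(value + 1), over all 9 libraries with 6 residual degrees of freedom, and Benjamini-Hochberg adjusted at a threshold of 0.05. Ratios within a library were compared by exact permutation. The count models planned as alternatives were not run, because decimal commas kept the table from being recorded as counts; limma-voom on the recovered counts was added after seeing the data. The members and gene lists were chosen with earlier results of these data known. Members named are 18 set ones and, per class and comparison, up to 3 called members with the largest change; of each partner list, up to 3 called genes. All 78 members were placed by symbol on GRCm38 (GENCODE M21). Promoter sequences are from RefSeq (GRCm38.p6), where 64 members matched. Code was tested on simulated data. Python 3.11.15 with numpy 2.4.6, pandas 2.3.3, scipy 1.17.1 and matplotlib 3.10.9 was used.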

Additional observations from a re-analysis of the deposited data

How the results depend on the processing

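Among the 34 named members, 51 gene and comparison pairs were called. Of these, 31 kept their call under all alternatives tried, 20 lost it under at least 1 and 0 changed sign. The alternatives numbered 20, but 19 for Cct6b and Hspb1, which a stricter filter at 20 normalized counts left out. Of the 51 pairs not called, 16 gained a call under at least 1. Scaling libraries to equal totals brought the all-gene median log2 change to 0.31 between mTO-iTreg and day 0 cells and to 0.22 between TGFβ-iTreg and day 0 cells. The members called higher then numbered 11 and 10, the calls of Bag5, Cct6a, Dnaja2 and Hspa8 against day 0 cells were lost in mTO-iTreg cells, and the share of all calls that were higher was 70.4% (57.1% in the main analysis) and 75.4% (52.6%). Limma-voom gave 1 member higher between TGFβ-iTreg and day 0 cells. Without day 0 replicate 2 and TGFβ-iTreg replicate 1, the shallowest libraries, this was also 1, with 1142 genes called in all against 2040 (1392 to 2002 with 1 library left out), and 4 members were higher between mTO-iTreg and TGFβ-iTreg cells. Leaving out 1 library at a time gave 1 (without TGFβ-iTreg replicate 1) to 5 (without day 0 replicate 2) members higher between TGFβ-iTreg and day 0 cells. Between mTO-iTreg and TGFβ-iTreg cells it gave 4 to 10 members higher, of which 4 is without TGFβ-iTreg replicate 1 and 5 is without replicate 1 or 3 of mTO-iTreg or replicate 2 or 3 of TGFβ-iTreg. Members lower in that comparison numbered 8 to 17, with 8 without mTO-iTreg replicate 1 and 9 without TGFβ-iTreg replicate 1 or 3. The cause of these shifts was not tested. The other alternatives (pseudocounts, filters, TMM factors, quantile normalization, fits of 2 groups, the replicate block) left each count within 1.5 times. Same-numbered libraries correlated at -0.05 to 0.06 once group means were removed, and 5 of 9 libraries were closest to their own number. The numbers were not used as pairs in the main test, but these correlations cannot exclude shared animals. Xist was 3.51, 0 and 212 in day 0 replicates 1 to 3 and 0, 2.71 and 70.6 in TGFβ-iTreg replicates 1 to 3. Whether same-numbered libraries share animals is not given in the labels and was not tested. With the replicate block, members higher and lower numbered 7 and 14 between mTO-iTreg and day 0 cells, 2 and 10 between TGFβ-iTreg and day 0 cells, and 9 and 12 between mTO-iTreg and TGFβ-iTreg cells. The planned count models (edgeR and DESeq2) were not run. Depth limits levels near 0, such as those of Hspa1a in mTO-iTreg, Hspb1 and Cct6b in TGFβ-iTreg and Cct6b in day 0 cells.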
